A study of Homo sapiens with 23 samples.

Results

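The comparison described here is the 2 h point of a TRPS1 degradation time course against its vehicle control, at which some changes not seen at 0.5 h have appeared. Its members are 8 of 23 PRO-seq libraries, chosen by their labels: 4 of cells given dTAG for 2 h and 4 of cells given DMSO, each numbered replicate 1 to 4. All were T47D cells, a luminal, estrogen receptor-positive breast cancer line, from Clone 28, a single clone with a degron tag inserted at the endogenous TRPS1 gene, so the DMSO cells carry the same tag. The 2 h group received dTAG-13 and dTAG-V-1 at 50 nM each, ligands that bring ubiquitin ligases to the tagged protein. The DMSO group received 0.1% DMSO for 24 h. Time in vehicle therefore differs between the groups along with the ligands, and neither can be told apart from loss of TRPS1, since untagged cells given dTAG were not analysed here. Libraries of dTAG for 0.5, 1 and 4 h (4 each) and 24 h (3) were used to date the changes, and entered the fit that estimates the spread between libraries.

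TRPS1 is an atypical GATA-family protein that binds GATA sites and represses nearby genes with corepressor complexes. When a repressor is removed, its own targets can change within minutes, and genes that answer to those targets or to altered metabolism follow later. PRO-seq lets engaged RNA polymerases add a labelled nucleotide, so a read marks a polymerase in a gene and not the mRNA in store. One well known slow circuit is sterol control: when sterols in the endoplasmic reticulum fall, the SREBP2 factor (gene SREBF2) is carried by SCAP to the Golgi, cleaved, and sent to the nucleus to induce cholesterol synthesis and uptake genes, while INSIG1 holds SCAP back.

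Total counts per library ranged from 7143166 to 13910436 in DMSO and from 7886241 to 14039516 at 2 h, and mitochondrial genes took 2.47% to 3.25% and 1.73% to 3.05% of them. After a filter on low counts, 26057 genes were tested. Libraries differed in part by replicate number. The first principal component of the 8 libraries held 44.8% of the variance. It put the replicate 1 libraries at -51.9 and -45.3, while the replicate 2 libraries lay apart, at -20.2 in DMSO and 23.1 at 2 h. The replicate number was a block by design, because same-numbered libraries were taken to have been collected together. The block was not chosen from these positions. By the labels, replicates were dishes of the one clone handled at different times of a single day, so p-values measure the spread between such dishes and not between days or clones. Luminal markers such as ESR1 (17190 to 37524 counts) and CDH1 (2024 to 3699) were abundant, and the basal keratins KRT5, KRT14 and KRT17 had at most 5 counts in any of the 8 libraries. The basal list was not silent as a whole, since 4 of its 7 genes passed the filter on low counts. All 7 summed to 46.9 to 51.7 CPM (of total counts) in DMSO and 51.7 to 61.2 at 2 h.

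TRPS1 itself (ENSG00000104447; hg38, chromosome 8, 115408496 to 115809673, minus strand) was transcribed at 9171, 7997, 10157 and 9359 CPM (counts scaled to 1e6 per effective library size) in DMSO replicates 1 to 4 and at 9484, 8989, 10794 and 11408 CPM at 2 h. The groups overlapped, although the 2 h library was the higher of its pair in 4 of 4 pairs. The change of 0.15 ± 0.03 (SE) on the log2 scale passed the test with the replicate block (edgeR adjusted p = 0.0212) and not without it (0.831). The ligands act on the protein, so these counts do not check its depletion.

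At 2 h, 634 of 26057 genes (2.43%) passed an FDR of 0.1 against DMSO, 339 higher (1.3%) and 295 lower (1.13%). Without the replicate block 191 genes passed, 112 higher and 79 lower, all of them among the 634. Fitted on the 8 libraries alone, 696 passed, 248 higher and 448 lower, so the balance of rises and falls depends on the libraries fitted. Changes were small: the median log2 fold change was 0.263 among the higher and -0.228 among the lower genes, and 7 higher and 10 lower genes moved by more than 1 log2 unit. The share of protein-coding genes was 60.3% among all tested genes, 69.6% among the higher and 89.2% among the lower, and the share of long noncoding RNA genes was 27.1%, 27.1% and 8.81%. In 1263 genes (4.85%) the 4 libraries of one group did not overlap the 4 of the other. In 5104 genes (19.6%) all 4 pairs went one way. An unadjusted p under 0.05 was reached by 2928 genes (11.2%).

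**Figure D1:**
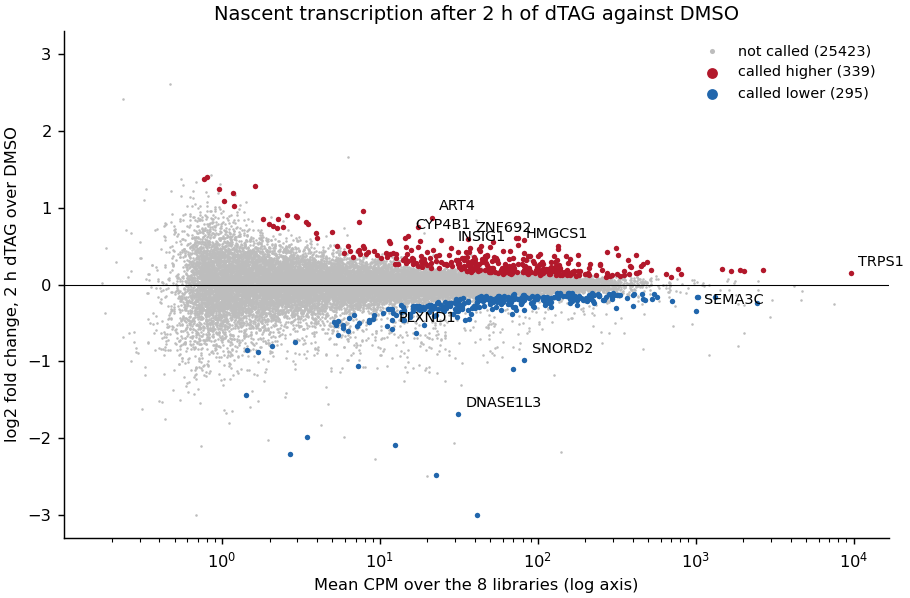
Each point is a gene, with its mean CPM over the 8 libraries on a log x axis and its log2 fold change at 2 h over DMSO on the y axis; red points were called higher (339), blue lower (295) and grey not called. Most called genes lie within 1 log2 unit of 0, the few blue points below -1 at 10 to 100 CPM include DNASE1L3, and 1 gene lies outside the y axis.

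Cholesterol synthesis was the pathway list with the highest share of called genes. Of its 22 genes, all tested, 13 (59.1%) rose at 2 h, against 1.3% of all genes, and none fell, with 0 lower also at an unadjusted p under 0.05 and in DESeq2, which called the same number higher, 13. The list's median log2 fold change was 0.222, against 0.00262 over all genes. Within the pairs the median log2 ratio was 0.257, 0.242, 0.213 and 0.192 for replicates 1 to 4, with 19, 18, 20 and 17 of 22 genes higher. Without the block 7 genes rose, HMGCS1, IDI1, SQLE, LSS, MSMO1 and DHCR7 among them, and 8 did when replicate 3 was left out. The list was chosen with its rise in these libraries known, so its count is not independent evidence of that direction.

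HMGCS1, which makes HMG-CoA at the head of the pathway (ENSG00000112972; chromosome 5, 43287470 to 43313512, minus strand), gave 64.3, 59.0, 63.7 and 60.9 CPM in DMSO and 90.5, 90.2, 88.2 and 85.2 CPM at 2 h. Every 2 h library lay above every DMSO library. Its log2 fold change was 0.51 ± 0.04 (SE, edgeR adjusted p = 5.77e-08; 2.7e-06 without the block).

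Downstream, enzymes of the isoprenoid steps rose by less. MVK, which phosphorylates mevalonate, gained 0.32 ± 0.07 on the log2 scale, but its groups overlapped, at 43.9 to 59.0 CPM in DMSO and 57.3 to 70.4 CPM at 2 h. IDI1, the isopentenyl diphosphate isomerase, was 61.8 to 64.7 CPM in DMSO and 69.9 to 81.5 CPM at 2 h (log2 fold change 0.26 ± 0.05). FDPS, the farnesyl diphosphate synthase, went from 50.4 ± 5.46 CPM (SD, n = 4) to 60.7 ± 3.51 CPM with overlapping groups. Their edgeR adjusted p-values were 0.0173, 0.0025 and 0.00143.

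The squalene and sterol steps rose as well. FDFT1, squalene synthase, went from 122.4 ± 4.22 CPM (SD, n = 4) to 138.9 ± 9.20 CPM. SQLE, squalene epoxidase (chromosome 8, 124998497 to 125022283, plus strand), gave 44.6, 43.8, 41.7 and 38.8 CPM in DMSO and 52.3, 51.5, 50.8 and 49.8 CPM at 2 h, without overlap. Its log2 fold change was 0.28 ± 0.04 (edgeR adjusted p = 0.000638). LSS, which closes squalene epoxide into lanosterol, went from 38.1 to 42.7 CPM in DMSO to 45.4 to 57.9 CPM at 2 h.

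Of the enzymes that turn lanosterol into cholesterol, MSMO1, the C4 sterol methyl oxidase (chromosome 4, 165327667 to 165343164, plus strand), changed most. It gave 27.2, 31.1, 33.9 and 26.8 CPM in DMSO and 41, 42.2, 39.4 and 38.8 CPM at 2 h, with no overlap and a log2 fold change of 0.43 ± 0.06 (edgeR adjusted p = 0.000241). DHCR7, which reduces 7-dehydrocholesterol (chromosome 11, 71428193 to 71452868, minus strand), gave 56.7, 60.2, 56.7 and 58.3 CPM in DMSO and 73.8, 78.4, 75.5 and 65.8 CPM at 2 h (log2 fold change 0.34 ± 0.04, edgeR adjusted p = 7.89e-05), also without overlap. CYP51A1, the lanosterol demethylase, rose by 0.24 ± 0.05, but it overlaps another gene on its strand, ENSG00000285772, and the reads they share cannot be assigned. HSD17B7 and SC5D rose by 0.33 ± 0.09 and 0.18 ± 0.04 (edgeR adjusted p = 0.0493 and 0.0104, but 0.411 and 0.374 without the block). The groups of HSD17B7 overlapped. HSD17B7 lost its call in 8 of 12 fits that left out a library or a replicate number, and SC5D in 2. The 9 members that did not pass, ACAT2, PMVK, MVD, TM7SF2, NSDHL, EBP, LBR and ERG28 among them, had log2 fold changes from -0.06 to 0.20.

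The rise came after the first 0.5 h. The list's median log2 fold change over DMSO was -0.00472, 0.0653, 0.222, 0.231 and -0.0433 at 0.5, 1, 2, 4 and 24 h, all against the same 4 DMSO libraries. Tested directly, 11 of the 22 genes were higher at 2 h than at 0.5 h (0.821% of all genes were called in that direction), 7 were higher than at 1 h (0.257%), and 0 differed between 4 h and 2 h. At 0.5 h SQLE and DHCR7 were below DMSO, with log2 fold changes of -0.23 ± 0.05 and -0.21 ± 0.04 (edgeR adjusted p = 0.00946 and 0.0207), so both had crossed over by 2 h. HMGCS1 was already up at 1 h, by 0.27 ± 0.04 (edgeR adjusted p = 0.000538), and MSMO1 by 0.24 ± 0.07 (0.0564). At 24 h HMGCS1 stood at 65.2 ± 3.42 CPM (SD, n = 3), not past the threshold against DMSO.

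**Figure D2:**
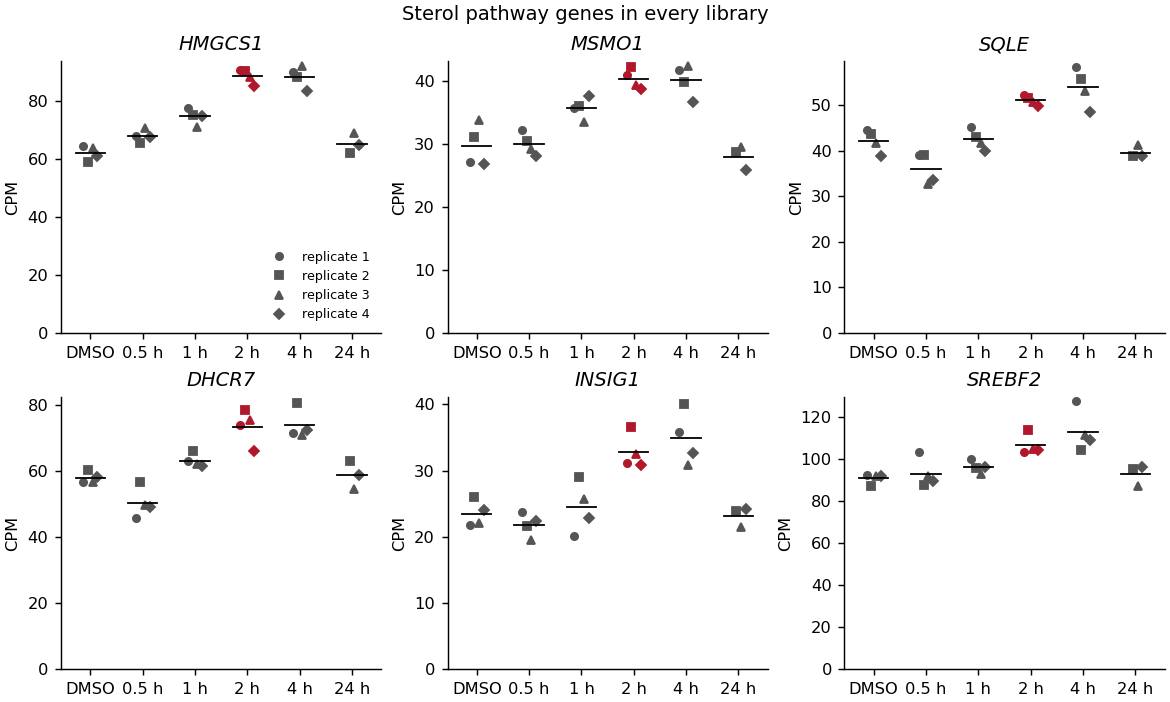
CPM of 6 sterol genes (y axis, from 0) in every library of DMSO and of each dTAG time (x axis, not to scale); symbols mark the replicate, horizontal lines the group mean, and red the 2 h libraries. HMGCS1 climbs from a mean of 62.0 CPM in DMSO through 74.7 at 1 h to 88.5 at 2 h, SQLE and DHCR7 dip at 0.5 h, and all 6 genes are higher than DMSO at 2 h and 4 h.

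Genes of sterol uptake and control moved in part. Of 17 listed genes 15 were tested, 3 rose (20%, against 1.3% of all genes) and none fell at the FDR threshold. DESeq2 gave the same counts, 3 and 0. At an unadjusted p under 0.05, 5 were higher and 1 lower, where 11.2% of all genes reached that p in either direction. INSIG1, the sterol-regulated brake on SCAP (chromosome 7, 155297776 to 155310235, plus strand), gave 21.8, 26.1, 22.1 and 24.1 CPM in DMSO and 31.1, 36.6, 32.5 and 30.9 CPM at 2 h. The groups did not overlap, and the log2 fold change was 0.48 ± 0.07 (edgeR adjusted p = 0.000592). SREBF2 (chromosome 22, 41833105 to 41907306, plus strand) gave 92.2, 87.2, 92.0 and 91.9 CPM in DMSO and 103, 114, 105 and 104 CPM at 2 h (log2 fold change 0.23 ± 0.05, edgeR adjusted p = 0.0141). Replicate 2 was the lowest DMSO and the highest 2 h library for SREBF2.

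Between 0.5 h and 2 h the log2 difference was 0.60 ± 0.07 for INSIG1 and 0.20 ± 0.05 for SREBF2, both past the threshold. Between 1 h and 2 h it was 0.40 ± 0.08 for INSIG1, which passed, and 0.15 ± 0.05 for SREBF2, which did not (edgeR adjusted p = 0.23). SREBF1, which encodes the SREBP1 factor of fatty acid genes, was at 61.4 ± 1.62 CPM (SD, n = 4) in DMSO and 58.8 ± 2.35 CPM at 2 h (edgeR adjusted p = 0.639). It had been below DMSO earlier, with log2 changes of -0.16 ± 0.04 at 0.5 h and -0.23 ± 0.04 at 1 h (edgeR adjusted p = 0.0369 and 0.00236). From 1 h to 2 h SREBF1 gained 0.17 ± 0.04 (edgeR adjusted p = 0.0736, and 0.502 without the block). SCAP was at 42.0 ± 2.46 and 38.3 ± 1.92 CPM (0.351), and INSIG2 at 15.2 ± 1.89 and 17.0 ± 2.51 CPM (0.604). LXR targets include sterol exporters. Of 8 tested, 0 were called higher and 1 lower (12.5%, against 1.13% of all genes). As a list they did not move, with 4 above and 4 below 0 and a median of 0.00385. The 1 called was the exporter ABCG1, at 19.1, 17.4, 18.1 and 16.4 CPM in DMSO and 12.3, 13.6, 14.4 and 12.2 CPM at 2 h, without overlap. Its log2 change was -0.43 ± 0.11 (edgeR adjusted p = 0.0454, and 0.129 without the block). ABCG1 lost its call in 7 of 12 fits that left out a library or a replicate number. The exporter ABCA1 was low, with 17 to 43 counts per library, and showed a log2 fold change of -0.26 ± 0.18 that did not pass.

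Fatty acid synthesis and desaturation genes followed a like course at smaller size. Of 26 tested 6 rose (23.1%, against 1.3% of all genes) and none fell, and DESeq2 called 8 higher and 1 lower. At an unadjusted p under 0.05, 10 were higher and 2 lower, where 11.2% of all genes reached that p in either direction. LPIN1, a phosphatidate phosphatase of lipid synthesis (chromosome 2, 11677595 to 11827409, plus strand), gave 32.5, 35.3, 41.3 and 35.8 CPM in DMSO and 47, 58.1, 51.1 and 49.7 CPM at 2 h without overlap (log2 fold change 0.50 ± 0.07, edgeR adjusted p = 0.000107). ACSL1, an acyl-CoA synthetase, rose by 0.28 ± 0.06, and ACLY, which makes cytosolic acetyl-CoA, by 0.18 ± 0.03. ACACA, the acetyl-CoA carboxylase, rose by 0.11 ± 0.03, from 320.3 ± 7.19 to 345.6 ± 10.4 CPM. The other two were the desaturase SCD (0.29 ± 0.08) and MID1IP1 (0.24), an activator of the carboxylase. FASN, fatty acid synthase, had a log2 fold change of 0.07 ± 0.09 and did not pass (edgeR adjusted p = 0.851). The list's median was -0.016, 0.0429, 0.0824, 0.137 and -0.00329 at 0.5, 1, 2, 4 and 24 h, and without the block LPIN1 and ACSL1 passed.

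SREBP2 acts at promoters beside NF-Y, which binds CCAAT boxes, so promoters of 5 genes that rose are shown. They are RefSeq sequences of GRCh38.p14, 5′ to 3′ on the gene's strand, and each ends before the first start annotated for the gene. Capitals mark CCAAT on either strand (written CCAAT or ATTGG) and the sterol regulatory element TCACNCCAC on either strand, and the marked motifs do not overlap. The intervals are HMGCS1, chr5:43313513-43313662, minus; INSIG1, chr7:155297628-155297775, plus; SREBF2, chr22:41832905-41833104, plus; MSMO1, chr4:165327467-165327666, plus; and IDI1, chr10:1049120-1049319, minus.
HMGCS1: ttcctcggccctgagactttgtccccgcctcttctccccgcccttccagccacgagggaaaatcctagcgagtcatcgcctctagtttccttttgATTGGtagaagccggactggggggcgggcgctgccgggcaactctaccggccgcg
INSIG1: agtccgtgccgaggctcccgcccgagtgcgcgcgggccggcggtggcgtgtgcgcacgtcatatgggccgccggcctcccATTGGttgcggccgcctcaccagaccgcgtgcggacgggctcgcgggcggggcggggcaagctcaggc
SREBF2: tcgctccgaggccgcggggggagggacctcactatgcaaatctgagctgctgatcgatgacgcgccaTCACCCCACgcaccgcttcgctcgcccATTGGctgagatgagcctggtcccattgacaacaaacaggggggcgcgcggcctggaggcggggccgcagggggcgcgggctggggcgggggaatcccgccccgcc
MSMO1: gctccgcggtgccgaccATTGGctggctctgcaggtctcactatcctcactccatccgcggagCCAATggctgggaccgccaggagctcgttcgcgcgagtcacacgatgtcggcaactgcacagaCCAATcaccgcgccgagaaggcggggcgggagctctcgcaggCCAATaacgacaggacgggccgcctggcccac
IDI1: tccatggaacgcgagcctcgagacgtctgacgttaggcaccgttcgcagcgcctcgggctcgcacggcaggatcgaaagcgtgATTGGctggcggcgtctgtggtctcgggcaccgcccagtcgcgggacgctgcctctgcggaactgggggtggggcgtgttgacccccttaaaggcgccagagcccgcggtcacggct

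The SREBF2 window holds the sterol element letters 125 to 133 bases and a CCAAT box 102 to 106 bases before its end, and it also lies in the antisense gene SREBF2-AS1. MSMO1 holds 4 CCAAT boxes, the nearest 28 to 32 bases before the end, while HMGCS1 holds 1 at 51 to 55, INSIG1 1 at 64 to 68 and IDI1 1 at 113 to 117. In windows from 250 bases before to 50 after the RefSeq start, CCAAT on either strand stood in 13 of 17 cholesterol synthesis genes with a window (76.5%), against 5205 of 14333 tested genes (36.3%). It stood in 8 of the 10 called higher and was absent from the called DHCR7 and CYP51A1. Among members not called, ERG28, EBP, NSDHL, TM7SF2 and MVD held it, and LBR and PMVK did not. The box therefore does not set the called members apart. The letters TCACNCCAC stood in 0 of the 17 and in 1.05% of all, which says only that they are not in these windows. A match of letters is a description and not a bound site.

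Genes with a late onset were defined as called at 2 h both against DMSO and against 0.5 h in the same direction. There were 150 of them (0.576% of tested genes), 87 higher and 63 lower, and without the block 39. The name says only that they moved further after 0.5 h: 11 of the higher and 0 of the lower genes had already passed in the same direction at 0.5 h, and 38 and 24 passed so at 1 h. Both contrasts share the 2 h libraries, so the count is a description. At 2 h against 0.5 h alone, 347 genes (1.33%) passed, 214 higher and 133 lower. At 0.5, 1, 2, 4 and 24 h the median log2 fold change of late higher genes was 0.0182, 0.129, 0.275, 0.29 and 0.212, and that of late lower genes -0.0146, -0.157, -0.229, -0.188 and -0.112. For scale, the tests against the same DMSO libraries called 2.48%, 3.25%, 2.49% and 2.65% of genes at 0.5, 1, 4 and 24 h. The contrast of 4 h against 1 h, fitted on those 8 libraries alone, uses neither the 2 h, the 0.5 h nor the DMSO libraries. In it 78 of 86 late higher genes were above 0 and 47 of 63 late lower genes below 0. Of all 23177 genes fitted, 49.9% were above 0. In that fit 2 genes (0.00863%) passed the FDR threshold, both lower: GRIK4 (-0.392 ± 0.034) and the identifier ENSG00000254754, which is in neither class. The classes themselves came from the fit of all 23 libraries, which took its spread in part from the 1 h and 4 h libraries. Genes of a class can move together, and 11 late higher genes are on the cholesterol synthesis list. The counts above and below 0 are therefore a description.

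Among the 6 late higher genes with the smallest p against 0.5 h, HMGCS1, DHCR7 and SQLE belong to the sterol list. DST, which encodes the cytoskeletal linker dystonin over 497 kb, gave 142, 123, 152 and 148 CPM in DMSO and 165, 165, 189 and 195 CPM at 2 h. It stood at -0.00 ± 0.03 at 0.5 h and 0.34 ± 0.03 at 2 h on the log2 scale over DMSO, and at 0.29 ± 0.04 at 24 h. OLMALINC, a long noncoding RNA next to SCD (chromosome 10, 100373099 to 100454043, plus strand), gave 112, 116, 121 and 114 CPM in DMSO and 137, 148, 146 and 136 CPM at 2 h, and differed from 1 h by 0.30 ± 0.04 (edgeR adjusted p = 0.00161) and from DMSO at 24 h by -0.04 ± 0.04. ZNF692, a zinc finger gene (chromosome 1, 248850006 to 248859144, minus strand), gave 26.6, 32.8, 28.6 and 27.4 CPM in DMSO and 46.8, 49.9, 39.2 and 39.6 CPM at 2 h. The log2 difference from DMSO grew from 0.08 ± 0.06 after 0.5 h to 0.59 ± 0.06 after 2 h and was 0.70 ± 0.06 after 24 h. At 24 h HMGCS1, DHCR7, SQLE and OLMALINC did not pass against DMSO, while ZNF692 and DST did.

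Of the 63 late lower genes, the 6 with the smallest p against 0.5 h are described. Among these 6, the 5 with an annotated span covered 180 to 477 kb, and ENSG00000284299 has no match in the annotation used here. TNS3, a focal adhesion protein gene, gave 240, 240, 240 and 233 CPM in DMSO and 204, 205, 212 and 203 CPM at 2 h, a log2 change of -0.21 ± 0.03 that was 0.09 ± 0.03 at 0.5 h. GRIK4 and GRIK3, which encode kainate-type glutamate receptor subunits, fell by 0.16 ± 0.03 and 0.20 ± 0.05. GRIK4 fell on, to 236.6 ± 4.92 CPM (SD, n = 4) at 4 h from 278.9 ± 6.51 CPM at 2 h, and was 1 of 4 genes that differed between those times. ZBTB7C, a zinc finger gene of the BTB family, went from 113 to 127 CPM in DMSO to 100 to 108 CPM at 2 h. SEMA3C, a secreted semaphorin, was 1157, 989, 1231 and 1133 CPM in DMSO and 834, 782, 941 and 1007 CPM at 2 h: the groups overlap, all 4 pairs fell, and the log2 change was -0.34 ± 0.04 (edgeR adjusted p = 4.23e-06; 0.111 without the block). ENSG00000284299 went from 230.5 ± 16.6 to 206.9 ± 10.3 CPM with overlapping groups. It and GRIK3 did not pass at 2 h against DMSO without the block (edgeR adjusted p = 0.712 and 0.208).

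**Figure D3:**
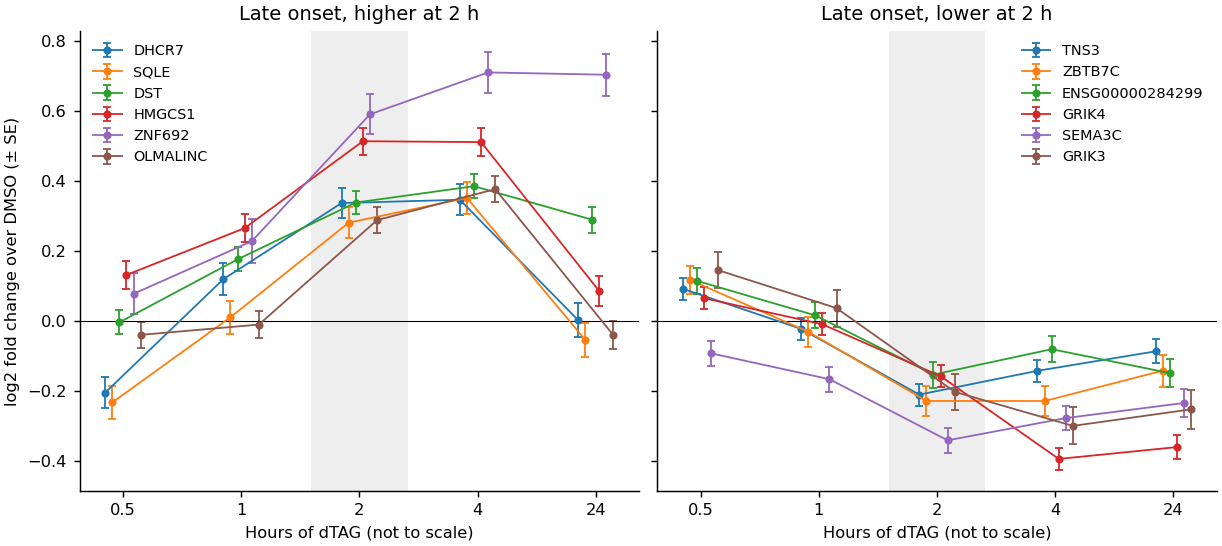
Log2 fold change over DMSO (y axis, ± SE) at each dTAG time (x axis, hours, not to scale) for the 6 late higher (left) and 6 late lower genes (right) with the smallest p at 2 h against 0.5 h; grey marks 2 h. DHCR7, SQLE, HMGCS1 and OLMALINC return to within 0.09 of 0 at 24 h, ZNF692 stays at 0.70, and GRIK4 drops from -0.16 at 2 h to -0.39 at 4 h.

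The largest rises at 2 h among genes with a mean of 100 counts or more were in part already present at 0.5 h. ART4, a mono-ADP-ribosyltransferase that carries the Dombrock blood group (chromosome 12, 14825569 to 14843526, minus strand), gave 13.9, 12.6, 17.6 and 15.6 CPM in DMSO and 27.2, 25.7, 28.3 and 29.6 CPM at 2 h. The 2 h values were about as high at 0.5 h, 26.9 ± 2.78 CPM (SD, n = 4), and the log2 rise over DMSO of 0.87 ± 0.07 (edgeR adjusted p = 8.83e-08) differed from that at 0.5 h by 0.04 ± 0.06. VCAN, the matrix proteoglycan versican, had likewise reached 0.52 ± 0.09 at 0.5 h and stood at 0.61 ± 0.09 at 2 h. CYP4B1, a cytochrome P450 fatty acid hydroxylase, did not pass at 0.5 h (0.31 ± 0.09, edgeR adjusted p = 0.105) and rose to 0.63 ± 0.09 at 2 h, from 12.1, 14.1, 11 and 10.2 CPM to 19.1, 18.9, 17.1 and 17.6 CPM. LINC01768, a noncoding RNA, rose by 0.75 ± 0.10, of which 0.43 ± 0.09 came after 0.5 h.

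GSTM5, a glutathione transferase gene, and ENSG00000241720, a noncoding RNA annotated inside its span on the same strand, both rose by 0.60 ± 0.04, from 54.0 to 64.5 CPM in DMSO to 86.6 to 97.1 CPM at 2 h for GSTM5. Of that rise 0.45 ± 0.04 was present at 0.5 h for both (edgeR adjusted p = 1.92e-06). They share reads and count as one signal, and GSTM5 belongs to a family of near-identical genes between which reads can be split. ENSG00000266850, a noncoding RNA of 184 kb that overlaps 3 genes on its strand, rose by 0.58 ± 0.05. With ZNF692, these make up the 8 largest rises, each without overlap between groups.

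The largest falls were of another kind. ZIM3, DNASE1L3, SNORD87 and SNORD2 changed by -3.01 ± 0.77, -1.68 ± 0.41, -1.10 ± 0.30 and -0.98 ± 0.28 on the log2 scale and fell in 4 of 4 pairs each. The block decided these calls: edgeR adjusted p-values were 0.0387 to 0.0943 in the blocked fit and 0.386 to 1.0 otherwise. Their spread within a group was wide. DNASE1L3, a secreted nuclease gene, gave 101, 43.8, 25.3 and 13.5 CPM in DMSO and 45.7, 9.82, 5.16 and 6.21 CPM at 2 h, and ZIM3, a zinc finger gene, 41.6, 34.0, 5.08 and 207 CPM and 25.7, 5.67, 3.12 and 5.64 CPM. SNORD87 and SNORD2 are small nucleolar RNAs inside the introns of SNHG6 and EIF4A2 on the same strand, and were highest in replicate 1 of both groups. Leaving out libraries changed their size. ZIM3 stood at -1.36 without replicate 4 of DMSO, its library at 207 CPM (edgeR adjusted p = 0.422). SNORD2 stood at -0.65 and SNORD87 at -0.73 without replicate 2 (edgeR adjusted p = 0.332 and 0.437). DNASE1L3 ranged from -1.97 to -1.46 and lost its call in 7 of 12 fits that left out a library or a replicate number.

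Of the other 4 falls, RBBP8NL, PLXND1 and NKAIN1 passed in all 12 fits that left out a library or a replicate number. RBBP8NL gave 19.8, 23, 17.6 and 21.6 CPM in DMSO and 12.8, 12.9, 15.3 and 11.6 CPM at 2 h (log2 -0.63 ± 0.09), and was already down by 0.44 ± 0.09 at 0.5 h. PLXND1, a semaphorin receptor, gave 12.0, 16.2, 13.7 and 15.2 CPM in DMSO and 8.39, 10.3, 10.1 and 9.28 CPM at 2 h. It fell by 0.58 ± 0.08 at 2 h, of which 0.40 ± 0.08 came after 0.5 h, and stood at -0.09 ± 0.09 at 24 h. NKAIN1, a Na,K-ATPase interacting protein gene, took a like course, with -0.14 ± 0.10 at 0.5 h, -0.54 ± 0.10 at 2 h and -0.11 ± 0.10 at 24 h. PRMT5-DT, a divergent noncoding RNA, fell by 0.53 ± 0.15 (edgeR adjusted p = 0.0952; 0.653 without the block) and lost its call in 10 of those 12 fits, with log2 changes from -0.71 to -0.45. All 4 had groups that did not overlap.

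More luminal lineage factors fell than rose. Of 24 tested, 8 fell (33.3%) and 3 rose (12.5%), against 1.13% and 1.3% of all genes. The median log2 fold change was -0.0916, with within-pair medians of -0.164, -0.129, -0.124 and -0.0411. SPDEF, an ETS factor of luminal epithelium, gave 98.2, 96.4, 84.3 and 87.0 CPM in DMSO and 66.6, 73.7, 72.4 and 74.7 CPM at 2 h (log2 -0.34 ± 0.05, edgeR adjusted p = 0.000145), the same depth as at 0.5 h (-0.35 ± 0.05). PGR, the progesterone receptor, was later, with log2 changes of -0.05 ± 0.03 at 0.5 h and -0.24 ± 0.03 at 2 h, although its groups overlapped at 2378 to 2879 CPM and 1977 to 2502 CPM (edgeR adjusted p = 0.328 without the block). MYB (-0.32), GRHL2 (-0.17), GATA3 (-0.16), TFAP2A (-0.15) and RARA (-0.14) fell as well. EHF, an epithelial ETS factor, rose from 430, 397, 424 and 393 CPM to 507, 467, 470 and 494 CPM, by 0.24 ± 0.03, having reached 0.27 ± 0.03 at 0.5 h, and HES1 rose by 0.19.

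Of 59 estrogen-induced genes tested, 14 fell (23.7%) and 6 rose (10.2%), against 1.13% and 1.3% of all genes. Their median log2 fold change was -0.069, and without the block 7 of the 59 were called. OLFM1, a secreted glycoprotein gene, fell from 45.3, 38, 38.7 and 37.4 CPM to 30.5, 29.3, 30.0 and 25.6 CPM (log2 -0.46 ± 0.06), 0.32 ± 0.06 of it after 0.5 h. CA12, a carbonic anhydrase, moved back, from a log2 change of -0.46 ± 0.03 at 1 h to one of -0.25 ± 0.03 at 2 h, and the difference of 0.21 ± 0.03 passed (edgeR adjusted p = 0.00947). CXCL12, a chemokine, fell by 0.24 ± 0.03, all of it by 0.5 h, and CCND1, cyclin D1, by 0.16 ± 0.04 (edgeR adjusted p = 0.0291; 0.622 without the block). The receptor gene ESR1 gave 2527 ± 134 CPM (SD, n = 4) in DMSO and 2405 ± 159 CPM at 2 h (edgeR adjusted p = 0.266). GREB1, a leading estrogen target, gave 1008 ± 48.0 and 1029 ± 25.7 CPM (0.768), and MYC 62.7 ± 4.47 and 63.1 ± 4.78 CPM (1.0).

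**Figure D4:**
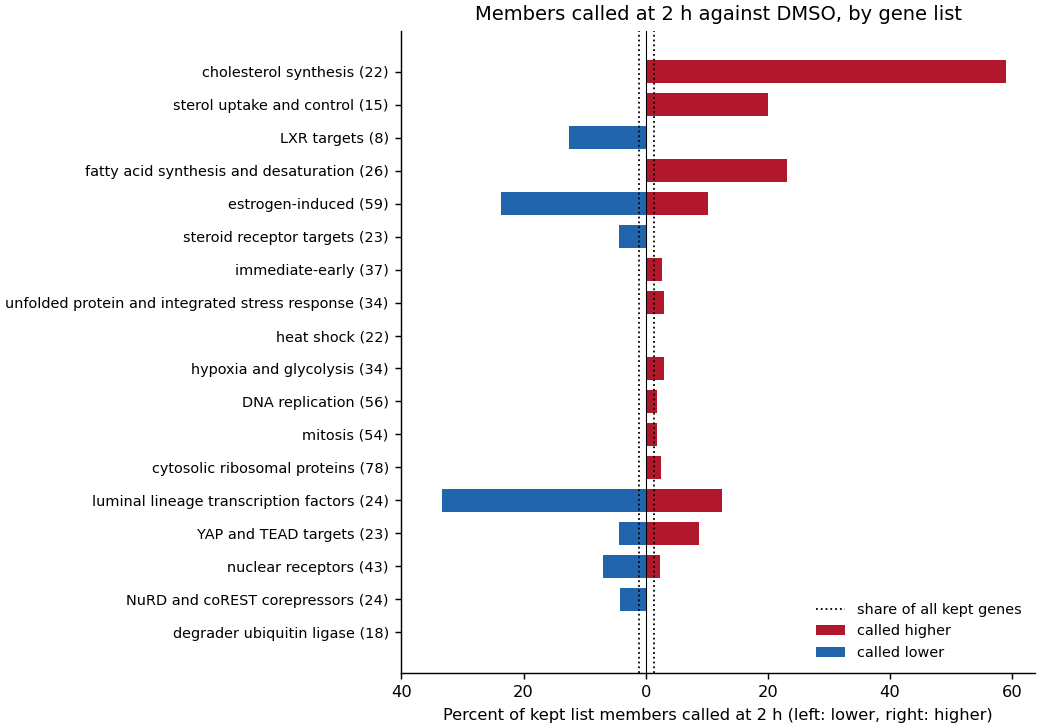
Percent of the tested members of each of 18 gene lists (tested members in parentheses) called higher (red, right) or lower (blue, left) at 2 h against DMSO; dotted lines mark the shares among all tested genes, 1.3% and 1.13%. Cholesterol synthesis reaches 59.1% on the higher side, and luminal lineage factors 33.3% on the lower side.

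Stress and growth programs had 0 to 2 called genes each, all higher, where 1.3% of all genes were called higher. Called were PHLDA1 among 37 immediate-early genes (0.20 ± 0.04), the cystine transporter SLC7A11 among 34 genes of the unfolded protein and integrated stress response (0.38 ± 0.10), and ANKRD37 among 34 hypoxia and glycolysis genes (0.28 ± 0.08). DNA replication had the clamp loader subunit RFC3 of 56 (0.12 ± 0.03), mitosis had securin PTTG1 of 54 (0.16 ± 0.05), and ribosomal proteins had RPS23 and RPS24 of 78 (0.15 ± 0.04 and 0.12 ± 0.03). Of 22 heat shock genes edgeR called 0, with 1 higher and 4 lower at an unadjusted p under 0.05 and 1 lower in DESeq2. Of 18 genes of the ligases that the ligands recruit it called 0 as well, with 1 higher at an unadjusted p under 0.05 and 1 in DESeq2. The unfolded protein list had 10 higher and 1 lower at an unadjusted p under 0.05, and DESeq2 called 0 of it. Of all genes, 11.2% reached that p in either direction. The 7 genes named here as called all missed the threshold without the block (edgeR adjusted p from 0.107 to 0.79), and reads of ribosomal protein genes can be shared with their pseudogenes.

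The remaining lists gave 1 to 4 called genes each, beside 1.3% of all genes called higher and 1.13% lower, so that 1 call in a list of this size is no result about the list. Among YAP and TEAD targets, TGFB2 (0.29 ± 0.06) and CRIM1 (0.18 ± 0.04) rose and TEAD4 (-0.19 ± 0.04) fell, of 23. Of 43 nuclear receptors 1 rose and 3 fell, the falls being PGR, RARA and THRB (-0.15 ± 0.04). TMPRSS2, a membrane serine protease, fell by 0.29 ± 0.07 as the 1 of 23 steroid receptor targets, and PHF21A, a coREST complex reader, by 0.15 ± 0.04 as the 1 of 24 corepressor genes. Of these CRIM1, PGR, THRB, TMPRSS2 and PHF21A missed the threshold without the block. Among markers, KRT19 (-0.14) and GATA3 fell of 10 luminal markers, whose summed level was 4760 to 4930 CPM (of total counts) in DMSO and 4430 to 4650 at 2 h. TP63 rose by 0.37 of 4 basal markers tested, with all 7 basal markers summing to 46.9 to 51.7 in DMSO and 51.7 to 61.2 at 2 h. Immune markers summed to 13.6 to 16.5 and 14.1 to 18.5, and stromal and endothelial markers to 19.7 to 22.1 and 20.6 to 22.3, with 0 called and 0 at an unadjusted p under 0.05. Fewer cells of a type and less transcription per cell cannot be told apart in bulk libraries.

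Called genes were long. The median annotated span was 26.4 kb over all tested genes, 65.1 kb among the higher, 67.3 kb among the lower, 91.6 kb among the late higher and 135 kb among the late lower genes. By span, the share called higher went from 0.524% of genes under 10 kb to 4.31% of genes over 300 kb, and the share called lower from 0.353% to 2.41%. Depth moved with it: the median mean count per library was 44.2 under 10 kb and 200.8 over 300 kb, and 133.2 over all genes against 599.8 in the higher class, and its part in the trend was not tested. In the bins of 10 to 30, 30 to 100, 100 to 300 and over 300 kb the median counts were 206.5, 300.4, 288.2 and 200.8. The shares called higher there were 0.967%, 1.39%, 2.36% and 4.31%. A median does not show how counts are spread within a bin. Whole-gene counts do not show how far along a gene the polymerases lie.

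**Figure D5:**
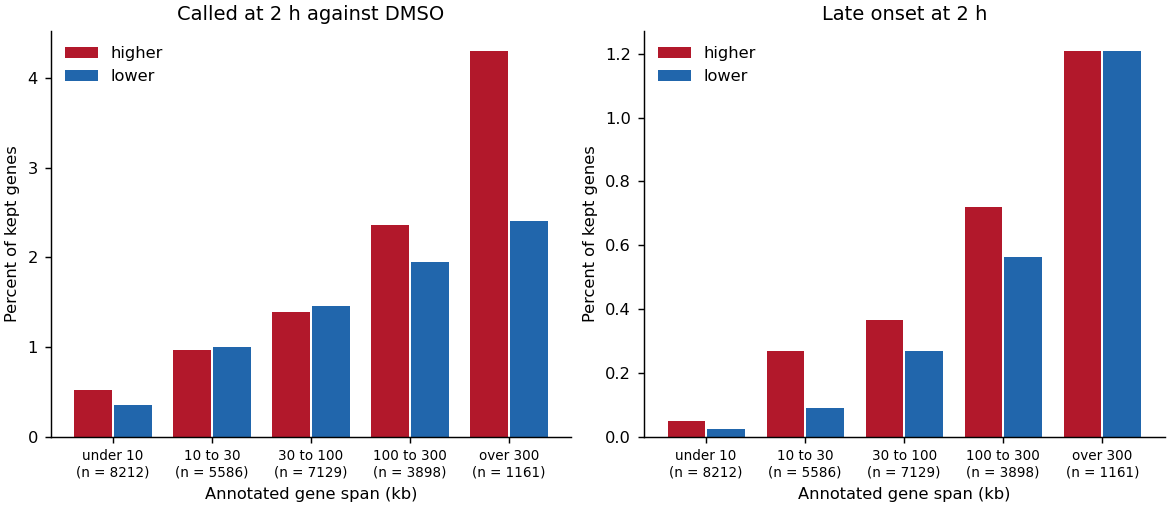
Percent of tested genes (y axis) called higher (red) or lower (blue) by annotated gene span (x axis, kb, n genes in each), at 2 h against DMSO on the left and for the late onset class on the right. All 4 shares climb with span, reaching 4.31% and 2.41% on the left and 1.21% for both on the right over 300 kb.

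Neighbouring times set the limits of the 2 h state. Against 1 h, 180 genes (0.691%) differed, 67 higher and 113 lower, but only 7 without the block. Among the higher genes with the smallest p were OLMALINC and CA12, and the 3 lower were TNS3, DNASE1L3 and CCDC26, a long noncoding RNA whose log2 difference from 1 h was -0.55 ± 0.09 while its difference from DMSO did not pass (-0.29 ± 0.09, edgeR adjusted p = 0.122). Between 2 h and 4 h 4 genes passed (0.0154%), with 1890 (7.25%) at an unadjusted p under 0.05 and 36 in DESeq2. They were the kainate receptor gene GRIK4 and the potassium channel gene KCNMA1, lower at 4 h by 0.236 ± 0.0311 and 0.291 ± 0.0378, and MDGA2 and SAMD4A, higher by 0.193 ± 0.0344 and 0.189 ± 0.0302. KCNMA1 had not moved past the threshold at 2 h (-0.0228, edgeR adjusted p = 0.899). A p that misses the threshold does not show that 2 h and 4 h are alike.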

How the data were processed

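The authors trimmed PRO-seq reads, collapsed PCR duplicates by molecular identifier, aligned to hg38 and counted reads in genes. Per the submitters' processing notes the tools were cutadapt 1.8.1, Bowtie2 2.4.4 and SAMtools 1.9. The deposited values are raw counts for 60605 Ensembl identifiers in 23 libraries, without normalization. Which gene annotation was counted, and whether by strand, is not given in the sources used here. GENCODE release 44 matched 60463 identifiers. Of 2509 genes nested in a gene on the opposite strand, 61.4% had under 0.1 of its read density, against 5.79% of 1313 nested on the same strand, so reads appear counted by strand and genes that overlap on one strand share them. Libraries of a group were not duplicates, with chi-square values per degree of freedom of 1.55 to 38.8.

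Libraries were grouped by their labels, which say that replicates were collected at different times of a day and the time points simultaneously. This was read as same-numbered libraries having been collected together. Deviations from the DMSO and 2 h group means correlated across genes at r = 0.535, 0.0715, 0.455 and 0.171 for replicates 1 to 4. Counts were fitted in R 4.3.3 with edgeR 4.0.16 (glmQLFit, glmQLFTest) on all 23 libraries, with time point and replicate block, TMM factors and filterByExpr (minimum count 10, minimum total 15). This kept 26057 genes holding 99.53% to 99.64% of counts. The common dispersion was 0.004891, against 0.02492 without the block. Two-sided p-values were adjusted by Benjamini-Hochberg over all kept genes, and genes under an FDR of 0.1, the study's threshold, were called. SEs were derived from the F statistic and the log2 fold change. CPM uses TMM-scaled library sizes. The fit was tested on simulated data.

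Named genes were TRPS1; the 8 largest rises and falls at 2 h with a mean of 100 counts and all 4 pairs one way; 6 late onset genes each way; 3 each way against 1 h; up to 4 called genes per list, and every called gene of the cholesterol synthesis and sterol control lists. Other genes named (members of those lists that were not called, further called list members, ESR1, GREB1, MYC, CCND1, FASN, KCNMA1, MDGA2 and SAMD4A) were chosen after their values were seen. Some genes that these rules name are not reported here. Members and lists were chosen with earlier results of these data known, and the 4 h against 1 h fit was added after seeing the data. Alternatives were no block, DESeq2 1.42.0, median-of-ratios factors, total counts, no filter, genes without overlap, only the libraries compared, and leaving out replicates or single libraries.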

Additional observations from a re-analysis of the deposited data

Results flagged for a closer look

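Of 130 groups of 4 libraries among the 65 named genes, 13 (10%) had a library set apart from the other three by Dixon's 95% limit, where chance sets apart about 1 in 20. At 2 h replicate 1 was high for SNORD2 (195 CPM), SNORD87 (140 CPM), DNASE1L3 (45.7 CPM), ZIM3 (25.7 CPM), GSTM5 (97.1 CPM) and ENSG00000241720 (95.0 CPM), the last pair sharing reads. Replicate 4 at 2 h was high for ENSG00000266850 (110.0 CPM). In DMSO, replicate 1 was high for OLFM1 (45.3 CPM) and CCDC26 (25.8 CPM), and replicate 4 was low for TNS3 (233 CPM) and IDI1 (61.8 CPM). SREBF2 was low in replicate 2 of DMSO (87.2 CPM) and high in replicate 2 of 2 h (114 CPM), so that pair shows the widest difference.

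The effect of dTAG differed between times by direct tests: 347 genes between 2 h and 0.5 h, 180 between 2 h and 1 h, and 4 between 4 h and 2 h. Of the named genes, 34 differed between 2 h and 0.5 h. In the sterol and fatty acid lists the log2 differences were 0.60 for INSIG1, 0.54 for DHCR7, 0.51 for SQLE, 0.45 for LSS, 0.43 for MSMO1 and MVK, 0.40 for ACSL1, 0.39 for LPIN1, 0.38 for HMGCS1, 0.30 for FDFT1, 0.27 for CYP51A1, 0.26 for FDPS, 0.23 for IDI1, 0.20 for SREBF2, 0.18 for ACLY and 0.10 for ACACA. Higher outside them were ZNF692 (0.51), LINC01768 (0.43), DST (0.34), OLMALINC (0.33), CYP4B1 (0.31), ENSG00000266850 (0.17), and GSTM5 and ENSG00000241720 (0.15 each). Lower were PLXND1 and NKAIN1 (-0.40 each), ZBTB7C and GRIK3 (-0.35 each), OLFM1 (-0.32), TNS3 (-0.30), ENSG00000284299 (-0.27), SEMA3C (-0.25), GRIK4 (-0.22) and PGR (-0.18).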

How the results depend on the processing

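No alternative reversed the direction of a named gene. Counts of genes were compared by size only. The balance of rises and falls against DMSO changed sides, to more falls, when only the libraries compared were fitted. Without the replicate block, 191 genes were called at 2 h against DMSO (634 with it), 65 against 0.5 h (347), 7 against 1 h (180), 2 between 4 h and 2 h (4), 39 with a late onset (150) and 7 in the cholesterol synthesis list (13). Counting only genes that overlap no other annotated gene, these 6 counts were 166, 88, 56, 0, 40 and 4. Without the low-count filter they were 1207 (550 shared with the 634), 967, 1204, 584 and 530, with the cholesterol count within 1.5 times. With total counts as library sizes, 279 genes differed from 1 h and 2 from 4 h, and the split against 0.5 h was 210 higher and 68 lower and of late onset genes 73 and 32. Fitting only the libraries compared gave 360 genes against 1 h and 0 against 4 h, and DESeq2 gave 36 against 4 h. The cause of these differences was not tested. Leaving out a whole replicate gave 246 (without replicate 4) to 791 (without replicate 1) genes against DMSO, 54 (without replicate 3) to 320 against 0.5 h, 3 (without replicate 3) to 582 (without replicate 1) against 1 h, 0 to 2 between 4 h and 2 h, 29 (without replicate 3) to 138 with a late onset, and 8 to 13 cholesterol genes. Leaving out 1 library, the counts were 421 (without replicate 2 of 2 h) to 651 against DMSO, 181 (without replicate 3 of 2 h) to 256 against 0.5 h, 28 (without replicate 1 of 2 h) to 86 against 1 h, 2 to 3 between 4 h and 2 h, 82 (without replicate 4 of 2 h) to 143 with a late onset, and 11 to 13 cholesterol genes. Of 73 calls on named genes, 32 missed the threshold without the block, 4 in DESeq2 and 9 with total counts, all keeping their direction. Leaving out replicate 1, 2, 3 or 4 as a whole, 6, 27, 31 and 29 of the 73 missed it. Leaving out 1 library of 2 h, 10 to 17 of the 73 missed the threshold. Leaving out 1 library of DMSO, 3 to 15 of the 56 calls against DMSO did. Genes of short span had lower counts and fewer calls, and the part of depth in that was not tested.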

Other observations

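MMAB, which makes adenosylcobalamin and lies head to head with MVK on chromosome 12, gave 68.9, 80.5, 67.9 and 72.0 CPM in DMSO and 81.0, 93.3, 90.0 and 82.1 CPM at 2 h. Every 2 h library was above every DMSO library, the log2 fold change was 0.26 ± 0.04 (edgeR adjusted p = 0.00124), and the difference from 0.5 h was 0.30 ± 0.04 (0.00071). Its neighbour MVK rose by 0.32 ± 0.07. STARD4, a cytosolic sterol carrier, did not pass at 2 h (log2 fold change 0.30 ± 0.11, edgeR adjusted p = 0.222) and rose at 4 h (0.44 ± 0.11, 0.0426), with 35 to 125 counts per library. Promoter windows held CCAAT in 44.1% of late higher (39.2% of those outside the cholesterol synthesis list), 28.2% of late lower, 37.6% of other higher and 34.4% of other lower genes, against 36.3% of all.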
